A study of Mus musculus with 12 samples.

Results

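Lysosomal genes were followed across RNA polymerase II and histone acetylation in microglia, the resident macrophages of the brain. The set was chosen by name: 36 listed genes for lysosomal hydrolases, their activators, membrane proteins and regulators, and every gene whose name starts with Atp6v, the subunits of the vacuolar proton pump. Of these, 57 genes had at least 1 peak in either table (35 of the 36 listed names and 22 Atp6v names), out of 17538 gene names in all, and 49 had peaks in both. They held 246 of 26706 Rpb2 peaks and 249 of 55862 H3K27ac peaks. Peaks had been given the name of the gene with the nearest start site, so a peak named for a gene may lie outside it.

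The mice were C57BL/6J, 2 mo old, and either WT or Cx3cr1-deficient (Cx3cr1 eGFP/eGFP, called KO), a line in which eGFP replaces the fractalkine receptor gene of microglia and some other myeloid cells in the whole body. Each library was a pool of 3 sex-matched mice, with microglia sorted as CD11b+ CD45lo cells. For each mark there was 1 female and 1 male pool per genotype, so every comparison of genotypes rests on n = 2 pools against 2. Rpb2 is a subunit of RNA polymerase II, and H3K27ac is an acetyl mark on histone H3 that active promoters and enhancers carry.

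Lysosomes break down what a cell engulfs. Their soluble hydrolases work at acid pH, which a proton pump keeps up by driving protons across the membrane with its V0 sector, powered by the ATP-splitting V1 sector in the cytosol. Membrane proteins such as Lamp1 and Lamp2 line the organelle, and many lysosomal genes carry short promoter elements bound by the related transcription factors TFEB and TFE3. Microglia are rich in lysosomes, and several inherited lysosomal storage diseases affect the brain.

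The Rpb2 libraries held 11662185 to 44332626 reads, of which 11.2% to 15.1% lay in peaks, and the H3K27ac libraries 10395804 to 21134403 reads. In the WT female H3K27ac library 15.9% of reads lay in peaks, against 61.1% to 65.3% in the other 3. The Rpb2 library labelled WT female held 136 reads at Y-linked genes, against 0 in the KO female library and 214 and 266 in the male ones, so its sex label is doubtful. Start-site peaks of 11 of 12 microglial markers summed to 2066 to 2196 Rpb2 CPM (counts scaled to the library's reads in tested peaks), while markers of neurons, astrocytes, other myeloid cells and T cells had no start-site Rpb2 peak. The oligodendrocyte list had start-site peaks for 1 of 4 markers, at 82.5 and 27.7 CPM in WT and 35.8 and 16.4 in KO, and the endothelial list for 1 of 4, at 19.3 to 38.2. For H3K27ac, 0 of the 12 microglial markers had a peak centred within 1000 bp of the start site. Such peaks were found for 2 of 4 oligodendrocyte, 1 of 4 endothelial and 1 of 7 other myeloid markers. Peaks centred within 1000 bp of a start site were the measure first set, and by it the check did not mark these cells as microglia. This measure leaves out a broad peak that covers a start site but is centred further away, as the 32308-bp H3K27ac peak at Lgmn is (−5834 bp). The check therefore cannot tell whether the start sites of the markers lay under H3K27ac. Peaks at any distance, a measure not planned, were then summed. Those of all 12 microglial markers came to 5881 to 8812 CPM. By the same measure the oligodendrocyte list (4 of 4 with peaks) summed to 335 to 371 CPM, the endothelial list (4 of 4) to 266 to 295 and other myeloid cells (5 of 7) to 90.7 to 138. The neuronal list (3 of 4) was at 62.5 in the WT female library and at 17.4 to 25.97 in the other 3, the astrocyte list (2 of 4) at 15.2 and 0, and the T cell list (1 of 2) at 7.74 and 0 to 1.27. The part of these cells in the results was not tested. Rpb2 at the Cx3cr1 start site was 481 and 505 CPM in WT and 476 and 443 in KO. This does not check the genotype, since the start site can remain beside the inserted eGFP.

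The promoters of the lysosomal genes were read first for the elements of the TFEB family. RefSeq promoter windows on GRCm38.p6, from 250 bases before to 50 bases after each start, were found for 48 of 58 names. The E-box CACGTG lay in the windows of 16 of these 48 genes (33.3%), against 12.9% of 6581 genes with an Rpb2 peak near a start site and 8.09% of all 27025 symbols. Its extended form TCACGTGA, which contains the E-box, lay in 7 genes (14.6%), against 2.61% and 1.13%. The related TCATGTGA lay in 6 genes (12.5%), against 0.942% and 1.15%. The letters GAGGAAGT, a core sequence bound by the myeloid factor PU.1, lay in 4 genes (8.33%), against 4.15% and 3.69%. Both strands were searched, and a match is a description of the letters, not of binding.

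**Figure D1:**
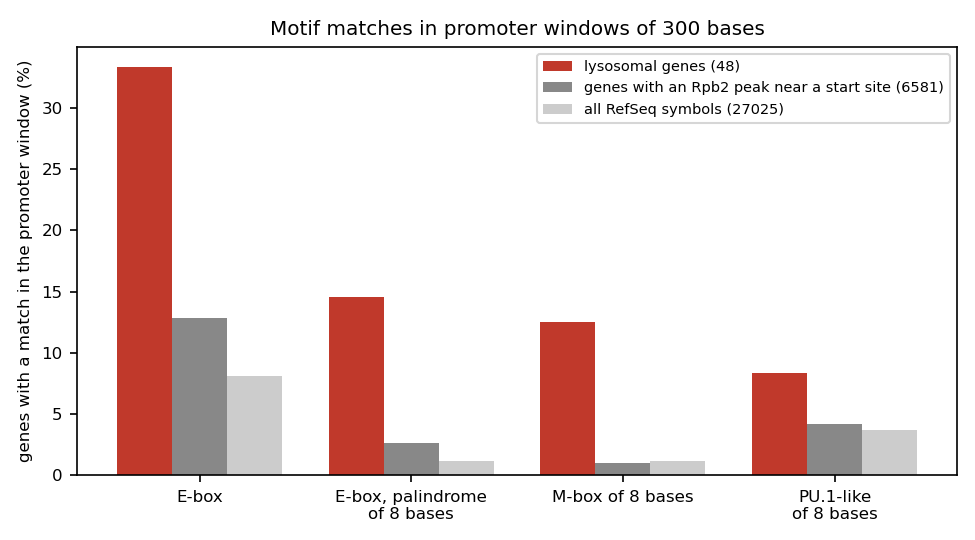
Share of genes (%) with a match to each of the 4 motifs in a promoter window: red for 48 lysosomal genes, dark grey for 6581 genes with an Rpb2 peak near a start site, light grey for 27025 RefSeq symbols. The motifs are CACGTG, TCACGTGA, TCATGTGA and GAGGAAGT from left to right, and the red bar is the highest at each.

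The windows that carry the 2 extended elements are shown because these elements were found at a higher share of the lysosomal promoters than of the promoters of all genes. Each line gives the RefSeq sequence (GRCm38.p6) on the strand of the gene, 5′ to 3′, with the element in capitals. For TCACGTGA the genes were a carboxypeptidase (Ctsa), an aspartic protease (Ctsd), a calcium channel of the lysosomal membrane (Mcoln1) and subunits of the pump.
Ctsa (chr2:164833736-164833791, + strand): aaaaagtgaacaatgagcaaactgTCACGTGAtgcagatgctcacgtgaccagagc
Ctsd (chr7:142387895-142387950, - strand): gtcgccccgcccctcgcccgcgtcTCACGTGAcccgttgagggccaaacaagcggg
Mcoln1 (chr8:3500449-3500504, + strand): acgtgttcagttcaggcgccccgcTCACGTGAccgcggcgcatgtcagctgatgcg
Atp6v0d1 (chr8:105566037-105566092, - strand): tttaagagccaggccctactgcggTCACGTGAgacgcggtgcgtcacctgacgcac
Atp6v0e (chr17:26676374-26676429, + strand): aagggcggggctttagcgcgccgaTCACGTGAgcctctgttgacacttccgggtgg
Atp6v1a (chr16:44139360-44139415, - strand): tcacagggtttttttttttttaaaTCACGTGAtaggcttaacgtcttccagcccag

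For TCATGTGA they were a cysteine protease (Ctss), a tripeptidyl peptidase (Tpp1), a palmitoyl thioesterase (Ppt1), progranulin (Grn) and the proteolipid of the pump's V0 sector (Atp6v0c). Where the element lay on the other strand, the capitals read TCACATGA.
Ctss (chr3:95526780-95526835, + strand): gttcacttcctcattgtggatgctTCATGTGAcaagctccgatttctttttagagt
Tpp1 (chr7:105752188-105752243, - strand): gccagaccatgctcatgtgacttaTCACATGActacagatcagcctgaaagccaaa
Ppt1 (chr4:122836216-122836271, + strand): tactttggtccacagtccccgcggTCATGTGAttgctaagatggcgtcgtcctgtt
Grn (chr11:102430272-102430327, + strand): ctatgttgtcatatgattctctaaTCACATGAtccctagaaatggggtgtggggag
Atp6v0c (chr17:24169436-24169491, - strand): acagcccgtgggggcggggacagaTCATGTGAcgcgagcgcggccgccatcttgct

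Counting Gla, 12 genes held at least 1 of these extended elements, and in 10 of the 12 the element lay within an Rpb2 peak at the start site. In Ctsa the first of 2 copies began 13 bases before the annotated start and lay 77 bases upstream of the centre of the Rpb2 peak. In Mcoln1 the element began 46 bases before the start and lay 103 bases downstream of the peak centre. The elements of Ctsd and Atp6v1a, 136 and 386 bases upstream of the peak centre, lay outside the peak. The Rpb2 peak over the Atp6v0c start (chr17:24169272-24169507) carried the name of the pseudogene Atp6v0c-ps2, which the annotation places on chromosome 6, so in this table the pseudogene's name stands for the Atp6v0c promoter. Per the study's methods only reads with a unique position were kept, so a read that matches both copies equally would be left out. In the same way the promoter of Gla, an alpha-galactosidase that has no row of its own, lay under Rpb2 and H3K27ac peaks named for Hnrnph2.

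Rpb2 was found at the start sites of 48 of the 57 genes, and mostly at high levels. Each gene was represented by its start-site peak (within 1000 bp) of the highest mean count, and its reads were divided by its length and by the library's TMM-scaled reads in tested start-site peaks, which gives RPKM. The median level over the 48 genes was 577.1, against 308.5 over all 8350 genes with such a peak. Of the 48, 40 lay above the median of all genes and 17 in the top 10%, above 860.1. Levels ranged from 96.2 for Glb1 to 2154 for Grn. These levels were not tested, and they cannot tell fewer cells from less polymerase per cell.

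**Figure D2:**
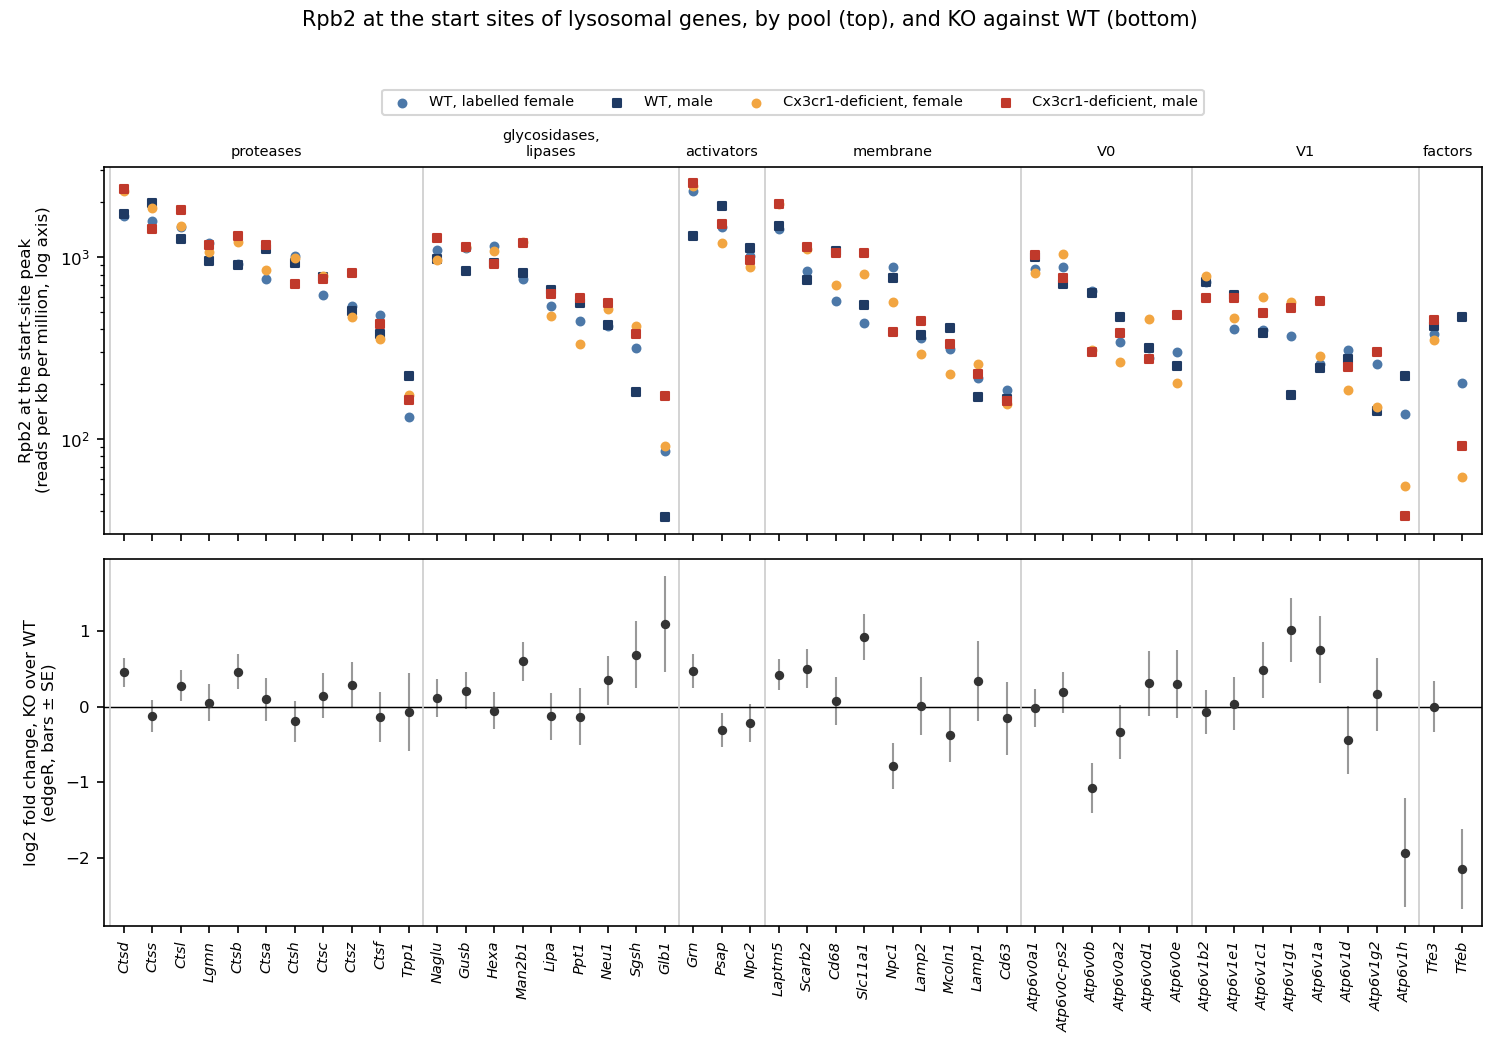
Top, Rpb2 at the start-site peak of 48 lysosomal genes in each of the 4 pools (RPKM, log axis), grouped by role; bottom, the log2 fold change (KO over WT) with its standard error from edgeR. Levels fall from 2154 for Grn to 96.2 for Glb1, and in the lower plot Tfeb and Atp6v1h lie lowest. Atp6v0c-ps2 marks the Atp6v0c promoter.

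Among the proteases, which degrade proteins in the lysosome, Ctsd stood highest, with Rpb2 levels of 1680 and 1716 RPKM in the female and male WT pools and 2301 and 2356 in the KO pools (values by pool follow this order throughout). Both KO pools lay above both WT pools. Ctss, whose product also acts in antigen presentation, was at 1583 and 1988 in WT and at 1858 and 1420 in KO, so the genotypes overlapped. Ctsl was at 1460 and 1249 in WT and 1474 and 1811 in KO, with the KO pools just above the WT pools. Tpp1 was the lowest of the 11 proteases at 132 and 222 in WT and 174 and 164 in KO, and again the pools overlapped. Ctsa was at 755 and 1104 in WT and 844 and 1159 in KO, with overlap and a log2 fold change of 0.10 ± 0.28 (SE). Its other start-site peak had one of −0.37 ± 0.36, also with overlap. The other proteases lay between 410.2 for Ctsf and 1092 for Lgmn, an asparaginyl endopeptidase that activates other hydrolases.

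Among the enzymes that split sugars, lipids and sulfates, the 2 with the highest counts were Gusb and Hexa, and Naglu was slightly higher per length, at a mean of 1072 RPKM. Hexa, a subunit of beta-hexosaminidase, stood at 1149 and 923 RPKM in WT and 1084 and 909 in KO. Gusb, the beta-glucuronidase, stood at 1124 and 837 in WT and 1134 and 1137 in KO. Hexa overlapped between genotypes, and in Gusb both KO pools lay just above both WT pools. Glb1, the beta-galactosidase, had the lowest start-site peak of the whole set at 85.2 and 37.2 in WT and 90.8 and 171 in KO, from 13 to 105 reads per library. Gaa had no Rpb2 row, although an H3K27ac peak lay over its promoter.

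The 3 soluble activators and precursors were all in the top 10% of genes. Grn, the gene of progranulin, was at 2303 and 1305 in WT and 2467 and 2540 in KO. The WT male pool stood apart from the other 3. Psap, the precursor of the saposins that help hydrolases reach sphingolipids, was at 1452 and 1896 in WT and 1193 and 1518 in KO. Npc2, a carrier of cholesterol inside the lysosome, was at 1015 and 1117 in WT and 875 and 964 in KO, with both KO values under the WT ones.

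Of the membrane proteins, Laptm5, a transmembrane protein of blood cell lysosomes, led with 1430 and 1481 RPKM in WT and 1965 and 1945 in KO. Scarb2, the receptor that carries beta-glucocerebrosidase to the lysosome, was at 834 and 750.5 in WT and 1111 and 1138 in KO. In both genes the KO pools lay above the WT pools at this peak, and the Scarb2 peak had been called in KO only. The other Scarb2 start-site peak, at −202 bp and called in the WT list only, had a log2 fold change of −0.09 ± 0.28 (SE). Its pools overlapped. Lamp1, an abundant membrane glycoprotein of lysosomes, was lower, at 215 and 169.8 in WT and 258 and 228 in KO, and Mcoln1 was at 312 and 408 in WT and 226 and 333 in KO. The gene of the tetraspanin Cd63 was lower still, at a mean of 166.9.

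The pump showed a middle range. Among the V0 genes the highest start-site counts were at Atp6v0a1, with 854.5 and 996.8 in WT and 817.9 and 1025 in KO, and at the Atp6v0c promoter, with 881 and 707 in WT and 1042 and 763 in KO. Both overlapped between genotypes, and Atp6v0e was lowest by count at 300.2 and 252 in WT and 204 and 481 in KO. Among the V1 genes Atp6v1b2, the B subunit of most tissues, was at 724 and 729 in WT and 789 and 596 in KO. Atp6v1e1 was at 401 and 617 in WT and 459 and 596 in KO, and Atp6v1h at 138 and 222 in WT and 55.3 and 37.6 in KO. Atp6v1f, Atp6v1c2, Atp6v1e2, Atp6v1g3 and Atp6v0e2 had no Rpb2 row, and Atp6v0a4 and Atp6v0d2, subunits best known from kidney and osteoclasts, had 1 Rpb2 peak each, away from the start site. Of the regulators, Tfe3 was at 377 and 419.5 in WT and 349 and 453 in KO.

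The genes differed widely in the number and place of the Rpb2 peaks named for them. Lgmn had 42 Rpb2 peaks, rank 14 among 10206 gene names by the number of peaks, and 30 of them overlapped the 45730-bp gene, covering 20.8% of it. Psap followed with 25 peaks (rank 58), then Ctss with 17, Ctsd with 15 and Laptm5 with 13. Of these, 19, 15, 10 and 11 overlapped the gene, in this order. Of the 51 genes with Rpb2 rows, 14 (27.5%) had 5 or more peaks and 5 (9.80%) had 10 or more, against 12.1% and 3.94% of all gene names. For Lgmn 85.7% of the Rpb2 reads lay in peaks further than 1000 bp from a start site. For Psap this was 66.6%, for Ctsd 62.5%, for Ctss 56.7% and for Laptm5 37.9%. These shares count every peak named for the gene, inside it or not, so they are no measure of spread over the gene. By contrast, Scarb2, Atp6v0a1, Cd68 and Glb1 had none of their Rpb2 reads in such peaks. By summed reads over all peaks named for the gene, inside it or not, Lgmn ranked 7, Ctsd 66, Psap 80, Grn 160, Laptm5 183 and Ctss 197.

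**Figure D3:**
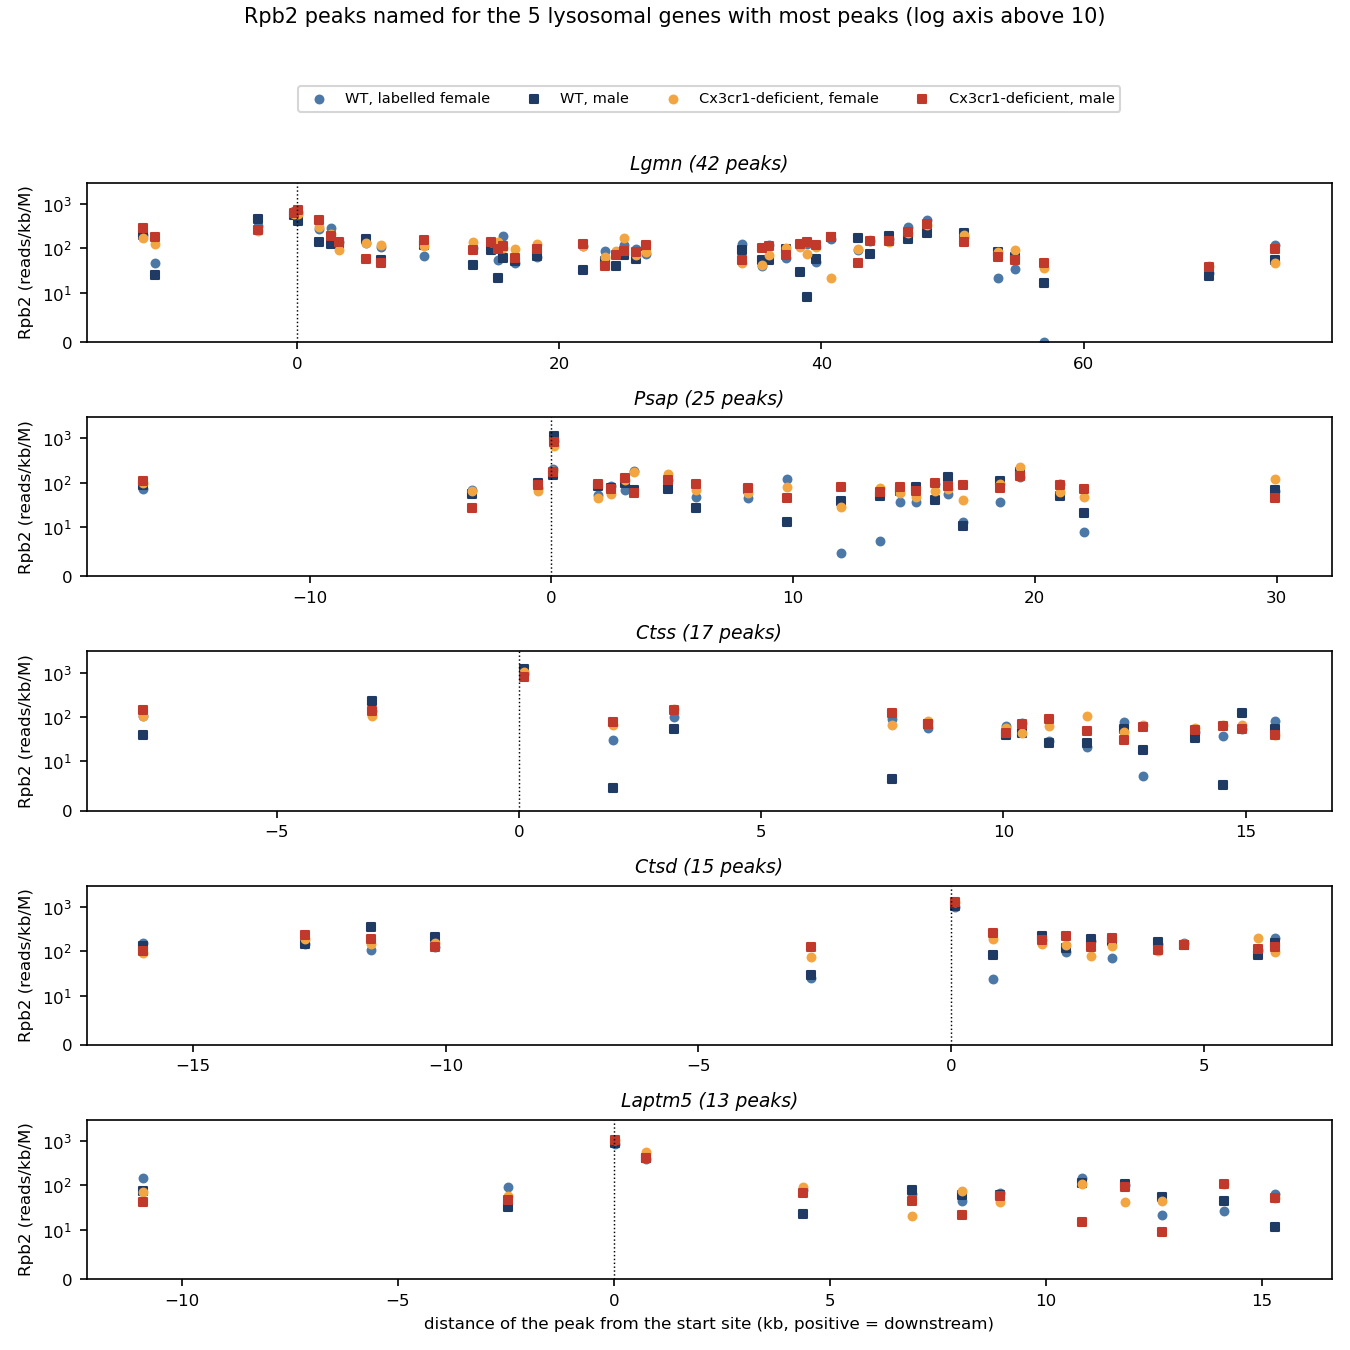
Rpb2 in each peak named for Lgmn, Psap, Ctss, Ctsd and Laptm5 (42, 25, 17, 15 and 13 peaks), by the distance of the peak from the start site (kb) and in each of the 4 pools (RPKM scaled to reads in all Rpb2 peaks, log axis above 10, linear below). The highest peak lies at the start site in each gene, and lower peaks lie away from it, some of them outside the gene.

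H3K27ac was broad over the same genes. Their 249 peaks had a median width of 1262 bp, against 666 bp for all peaks, and 9 (3.61%) were wider than 10000 bp, against 1.08% of all peaks. Peaks called in WT only made up 46 of the 249, against 18524 of the 55798 tested peaks, and widths were not compared apart from this. The widest, 38496 bp over Ctsd (chr7:142368262-142406758), was the 9th widest of 55862, and a 32308-bp peak that starts within Lgmn and runs upstream of it (chr12:102429493-102461801) ranked 21. The Ctsd peak covered the whole gene and enclosed all 15 Rpb2 peaks named for Ctsd. H3K27ac peaks overlapped 39 of the 42 Rpb2 peaks of Lgmn and 22 of the 25 of Psap, and 8 of the 17 of Ctss. Across the 49 genes with both marks, summed Rpb2 and H3K27ac CPM had a Spearman's rho of 0.775, against 0.642 over all 9613 such genes. This is a description across genes, which are not independent replicates and share libraries and peak lengths.

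No Rpb2 start-site peak of a lysosomal gene passed the test between genotypes. edgeR's quasi-likelihood test over all 10125 peaks within 1000 bp of a start site, with Benjamini-Hochberg adjustment, called 0 peaks (0%), and thus 0 of the 62 lysosomal peaks. At an unadjusted p under 0.05, 9 of the 62 (14.5%) stood against 10.6% of all start-site peaks, 5 higher in KO against 4.42% of all (8.07% of the set) and 4 lower against 6.13% (6.45% of the set). In 26 of the 62 peaks (41.9%) the 2 KO pools lay on one side of both WT pools, against 42.1% of all. The median log2 fold change (KO over WT) was 0.10, against 0.02 for all start-site peaks. Counting 1 peak per gene, 29 genes had a positive and 19 a negative fold change. Non-overlapping peaks were thus about as frequent as among all start-site peaks.

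Tfeb, the gene of the main regulator of lysosomal genes, had the lowest p of the set. Its start-site peak (chr17:47736953-47737241) held 58.6 and 134 CPM in WT and 17.8 and 26.3 CPM in KO, with both KO values under the WT ones. The log2 fold change was −2.15 ± 0.53 (SE), with an adjusted p of 0.146 by edgeR. Without the library labelled WT female it was −2.62, with an edgeR adjusted p of 0.0014, where the lone WT pool is assumed to vary like the KO pools, and without the WT male pool −1.42 (adjusted p = 0.382). The peak was called in the WT list only. The other 4 Rpb2 peaks named for Tfeb had unadjusted edgeR p-values of 0.052 to 0.149 in the fit over all Rpb2 peaks. Of these, 3 had fold changes opposite to that of the start site (log2 fold changes 0.83, 1.15 and 1.35), each with both KO pools above both WT pools, and 1 was negative (−1.28). The median over all 5 Tfeb peaks was 0.83. H3K27ac over the same promoter had a log2 fold change of 0.25 ± 0.30 (SE), which did not pass the test.

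The 4 next lowest start-site p-values belonged to a protease, a metal transporter and the pump. A Ctsd peak in an intron, 827 bp from the start, was called in the KO list only. It held 7.82 and 27.3 CPM in the WT pools and 67.1 and 92.5 CPM in the KO pools. These came from 6 and 25 reads and from 203 and 130 reads. Its log2 fold change of 2.15 ± 0.59 (SE) had an edgeR adjusted p of 0.2075. Without the WT male pool it was 3.33, with an edgeR adjusted p of 0.0078, and without the library labelled WT female 1.54 (adjusted p = 0.178). The promoter peak of Ctsd had a log2 fold change of 0.46 ± 0.19 (SE). Atp6v0b, a V0 proteolipid subunit, held 174.5 and 170.5 CPM in WT and 83.2 and 80.4 CPM in KO, and the 2 pools of each genotype lay close together. Its log2 fold change was −1.07 ± 0.33 (SE), with an edgeR adjusted p of 0.243. Slc11a1, a metal ion transporter of phagosomes, held 100.3 and 126 CPM in WT and 187 and 243 CPM in KO, and its log2 fold change was 0.92 ± 0.30 (SE), with an edgeR adjusted p of 0.270. The peak of Atp6v1h, the subunit H of the V1 sector, was called in the WT list only. It held 31.3 and 50.3 CPM in WT and 12.6 and 8.54 CPM in KO, at only 12 to 46 reads per library. Its log2 fold change of −1.93 ± 0.72 (SE) had an edgeR adjusted p of 0.333.

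Grouped by role, the medians at the start-site peaks lay near 0. For the 16 protease peaks the median log2 fold change was 0.11, with 2 peaks at an unadjusted p under 0.05, both higher in KO and both of Ctsd. Of all start-site peaks, 4.42% were higher and 6.13% lower at that p, and the role groups hold too few peaks to be read against these shares. For the 9 glycosidase, lipase and sulfatase peaks it was 0.21, with 1 such peak, Man2b1, the lysosomal alpha-mannosidase, higher. For the 7 peaks of activators and other soluble proteins it was −0.07, with 0 such peaks. For the 11 membrane protein peaks it was 0.08, with Slc11a1 higher and Npc1, a cholesterol transporter, lower. For the 7 V0 peaks it was −0.01, with Atp6v0b lower, and for the 9 V1 peaks 0.17, with Atp6v1g1 higher and Atp6v1h lower. Grn, Psap and Ctss, all high at their start sites, did not pass the test. At the start-site peak of highest count, Grn had a log2 fold change of 0.48 ± 0.23 (SE), Psap one of −0.31 ± 0.22 and Ctss one of −0.12 ± 0.21. At this peak Grn depended on 1 pool, since its log2 fold change was 0.94 without the library labelled WT female and 0.12 without the WT male pool. Grn had 3 start-site peaks, and they did not share a direction. The peak at 990 bp from the start, called in the WT list only, had a log2 fold change of −0.97 ± 0.51 (SE), with both KO pools under both WT pools. The peak at −995 bp had one of 0.13 ± 0.23, and its pools overlapped.

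By promoter element, fold changes lay on both sides of 0. The 14 E-box genes with a start-site peak had a median log2 fold change of 0.29 (11 positive), from −1.07 for Atp6v0b to 1.10 for Glb1, and the 25 without the letters one of 0.01. The 6 genes with TCACGTGA and such a peak ranged from −0.37 for Mcoln1 to 0.76 for Atp6v1a. The 4 with TCATGTGA ranged from −0.13 for Ppt1 to 0.48 for Grn. None of their adjusted p-values passed 0.05, and the groups were not tested against each other.

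Over all Rpb2 peaks, edgeR called 2 of 26706 (0.00749%) and 0 of the 246 lysosomal peaks. At an unadjusted p under 0.05, 23 of the 246 (9.35%) stood against 12.2% of all peaks, 15 higher (6.10%, against 6.12% of all) and 8 lower (3.25%, against 6.06% of all). WT and KO pools were apart in 116 (47.2%), against 47.4% of all. The median log2 fold change was 0.09, against 0.04 for all peaks. Without the library labelled WT female, 22 of the 246 (8.94%) were called, 16 higher and 6 lower, against 8.28% of all peaks. Without the WT male pool, 12 (4.88%) were called, against 7.35% of all peaks.

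In this fit CPM counts reads in all Rpb2 peaks, so a peak's CPM is lower here than in the start-site fit. After the start-site peaks of Tfeb and Atp6v0b, the 3 lowest p-values belonged to peaks inside or beside genes. A Ppt1 peak in the 3′ UTR, 21644 bp from the start, held 24.9 and 58.6 CPM in WT and 9.82 and 8.19 CPM in KO, and its log2 fold change was −2.20 ± 0.60 (SE), with an edgeR adjusted p of 0.204. A Hexa peak in an intron had 0 reads in both WT pools and 50 and 18 reads in the KO pools, which is at least 7.89-fold higher in KO when WT is set at 3 reads over its 2 pools. Its edgeR adjusted p was 0.212. A Lgmn peak at −10862 bp from the start held 10.9 and 5.92 CPM in WT and 29.8 and 42.9 CPM in KO, and its log2 fold change was 2.11 ± 0.61 (SE), with an edgeR adjusted p of 0.220. In each of these 3 peaks the KO pools lay on one side of the WT pools. The Ppt1 peak was called in the WT list only and the Hexa and Lgmn peaks in the KO list only. The lists come from the same libraries, so this separation is no separate support. Without the library labelled WT female the log2 fold changes were −2.70 for Ppt1 and 2.59 for Lgmn. Without the WT male pool they were −1.45 and 1.73. Hexa had no WT reads, so leaving out a WT pool gives it no bounded fold change.

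Within the genes of many peaks the fold changes were spread on both sides. Of the 42 Lgmn peaks 28 had a positive and 14 a negative log2 fold change, with a median of 0.24. In Psap 15 of 25 were positive (median 0.23), in Ctss 10 of 17 (median 0.42), in Ctsd 7 of 15 (median −0.07) and in Laptm5 5 of 13 (median −0.21). The direction followed the list in which a peak had been called. Of the 119 lysosomal Rpb2 peaks in the KO list only, 96 were higher in KO, of the 52 in the WT list only 45 were lower, and of the 75 in both lists 34 were higher and 41 lower, with medians of 0.61, −0.64 and −0.02. All peaks of these lists had medians of 0.51, −0.89 and −0.17. A peak's list was set from the same libraries, so these counts are no separate evidence of direction.

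**Figure D4:**
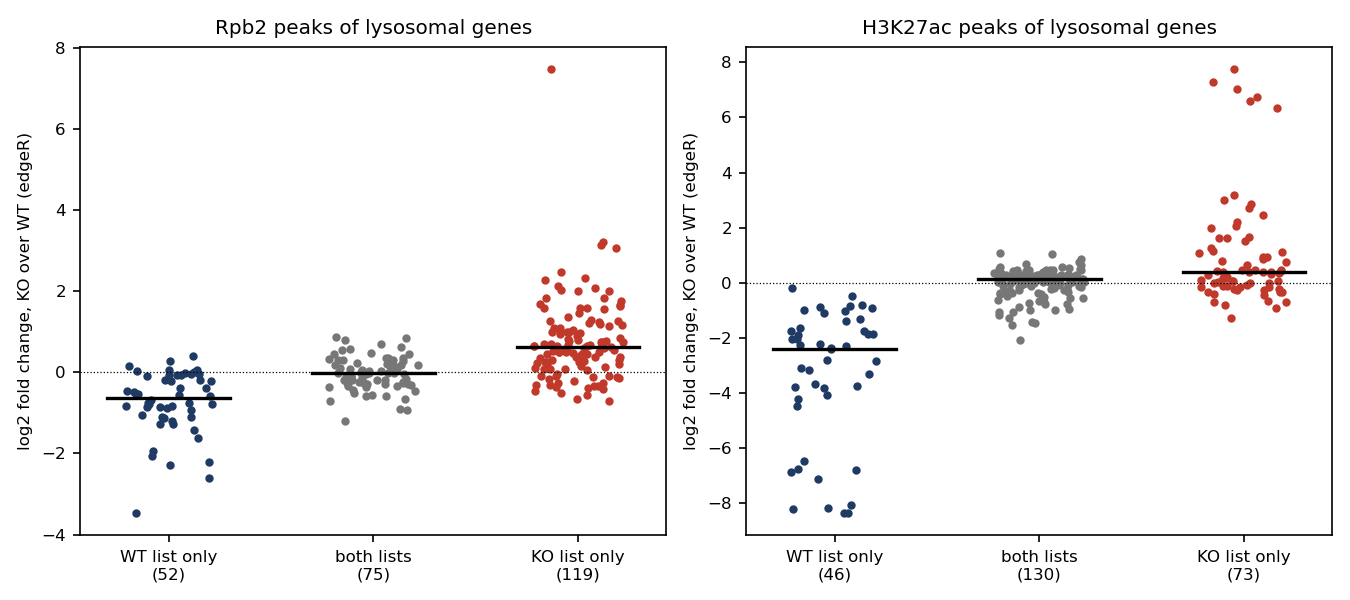
Log2 fold change (KO over WT) (edgeR) for each Rpb2 peak (left, 246) and H3K27ac peak (right, 249) of the lysosomal genes, by whether the peak was called in the WT list, both lists or the KO list; bars are medians. Rpb2 medians run from −0.64 through −0.02 to 0.61 and H3K27ac medians from −2.39 through 0.12 to 0.38, and values past 6 on either side have a genotype with few or no reads.

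H3K27ac gave no call among the lysosomal peaks either. edgeR called 13 of 55798 peaks (0.0233%) and 0 of 249, with a lowest adjusted p of 0.563. At an unadjusted p under 0.05, 13 of the 249 (5.22%) stood against 4.95% of all, 8 higher (3.21%, against 1.35% of all) and 5 lower (2.01%, against 3.6% of all). The pools did not overlap in 98 (39.4%), 49 in each direction, against 27.4% of all. The median log2 fold change was 0.02, against −0.21 for all peaks, and its sign changed with the scaling, to −0.03 with DESeq2 size factors, −0.03 with reads in tested peaks and −0.02 with loess offsets. All 46 lysosomal peaks of the WT list only were lower in KO (median −2.39), of the 73 of the KO list only 49 were higher (median 0.38), and of the 130 in both lists 80 were higher (median 0.12). Over all H3K27ac peaks of these lists the medians were −6.78, 0.52 and 0.04, and 99.5% of the WT-list peaks were lower. The list a peak came from thus went with its direction here too. The WT list only held 18524 of the 55798 peaks, against 46 of the 249. Of all its peaks, 67.9% had 0 reads in the WT male pool, against 8 of the 46. The shares and the median over all peaks carry this list, and the lysosomal shares of p and overlap were not compared with all peaks within a list. The WT female library's low share of reads in peaks moves with this comparison, and its part in these values was not tested. Without it 5 of 243 lysosomal peaks (2.06%) were called, 1 higher and 4 lower, against 1.53% of all peaks. Without the WT male pool 44 of 247 (17.8%) were called, 35 higher and 9 lower, against 14.8% of all peaks, so the main direction of the calls turned with the library left out.

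The 5 lowest p-values all belonged to peaks that were higher in KO. An intronic Scarb2 peak (chr5:92484097-92486043) held 5.37 and 3.04 CPM in WT and 11.5 and 22.7 CPM in KO, and its log2 fold change was 2.05 ± 0.59 (SE), with an edgeR adjusted p of 0.563. A Psap peak at −24807 bp from the start held 20.6 and 24.1 CPM in WT and 38.9 and 54.9 CPM in KO, and its log2 fold change was 1.06 ± 0.32 (SE). A Slc11a1 peak at −5734 bp from the start held 54.5 and 115 CPM in WT and 145 and 163 CPM in KO, and its log2 fold change was 0.85 ± 0.30 (SE). The start-site Rpb2 peak of this gene also had a positive fold change at an unadjusted edgeR p under 0.05. At the start-site Rpb2 peak of highest count, the log2 fold change was 0.51 for Scarb2, 0.49 for Atp6v1c1 and −0.31 for Psap. Atp6v0d2 had no such peak, and whether the marks moved together was not tested. An Atp6v1c1 peak at −17672 bp from the start held 13.0 and 16.9 CPM in WT and 34.8 and 27.1 CPM in KO. An intronic peak of Atp6v0d2 held 36.7 and 36.0 CPM in WT and 59.8 and 63.6 CPM in KO. In all 5 both KO pools exceeded both WT pools, and the edgeR adjusted p-values ran from 0.563 to 0.811. Without the WT male pool all 5 were called, with log2 fold changes of 0.75 for Atp6v0d2 to 1.67 for Scarb2, in a fit that called 14.8% of all peaks. Without the WT female pool the Scarb2 peak was called (log2 fold change 2.48, edgeR adjusted p = 0.011) and the other 4 were not, with log2 fold changes of 0.95 for Psap, 0.41 for Slc11a1, 0.86 for Atp6v1c1 and 0.77 for Atp6v0d2. In these fits the lone WT pool is assumed to vary like the KO pools.

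The broad domains had small fold changes. The Ctsd domain held 903 and 1234 CPM in WT and 1209 and 1208 in KO (0.18 ± 0.42, SE, as log2 fold change), and the Lgmn domain 644 and 1030 CPM in WT and 1054 and 1019 in KO (0.31 ± 0.40). The low value of each was that of the WT female pool, and the fold changes turned on it. Without it the log2 fold changes were −0.037 for the Ctsd domain and 0.0025 for the Lgmn domain. With it as the lone WT pool they were 0.42 and 0.69, with edgeR adjusted p-values of 2.6e-07 and 1.6e-16, in a fit that called 14.8% of all peaks. Some peaks had no reads in a genotype: a Ctsb peak at −15356 bp from the start held 14 and 33 reads in the WT pools and 0 in both KO pools, at least 41.0-fold lower in KO with KO set at 3 reads over its 2 pools. Its unadjusted edgeR p was 0.038, and it was called in the WT list only.

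No promoter H3K27ac peak passed the test, and more of them had positive than negative fold changes. An H3K27ac peak lay over the promoter window of 43 of the 48 names with a window, and not over those of Atp6v0a4, Atp6v0e2, Atp6v1c2, Atp6v1e2 and Atp6v1g3. Of the 43, 35 had a positive and 8 a negative log2 fold change, with a median of 0.21, against 0.08 for all 9175 peaks over promoters. Each lysosomal promoter stood for its peak of highest mean count, while the 0.08 is over every peak. The medians are thus of unlike sets, and the gap between them was not tested. The range ran from −0.50 for Tpp1 to 0.57 for Ctsl, whose unadjusted edgeR p of 0.052 was the lowest. For the 41 of them named for the same gene the median was 0.21 (34 positive). It was 0.0075 without the WT female pool (23 positive) and 0.0062 with loess offsets (21 positive). Of the 39 genes with both start-site readouts, 21 were positive in both marks and 3 negative in both. Taken singly, 35 of 43 genes were positive for H3K27ac and 29 of 48 for Rpb2. The share over all genes was not counted, so these counts do not show that the marks moved together. The peak over the Glb1 promoter was named for Tmppe, so Glb1 has no H3K27ac row of its own.

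**Figure D5:**
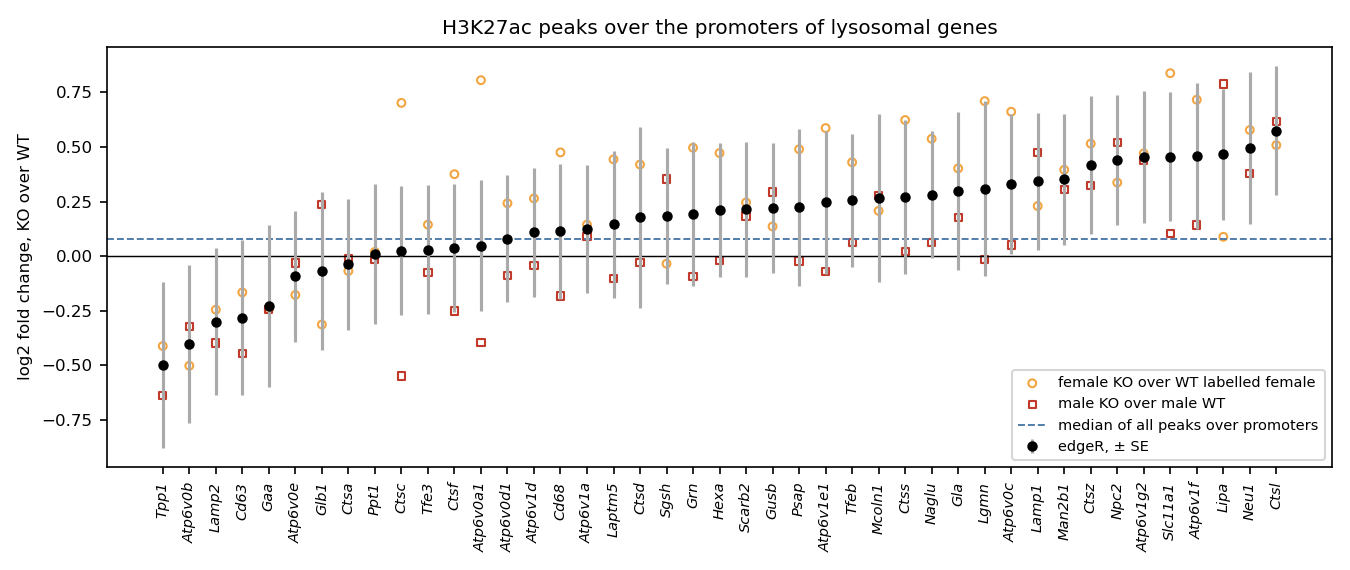
Log2 fold change (KO over WT) for the H3K27ac peak over each of 43 lysosomal promoters: black points with standard errors from edgeR, open circles for the female pools and open squares for the male pools, the dashed line for the median of all peaks over promoters (0.08). Points run from −0.50 for Tpp1 to 0.57 for Ctsl, and the female ratio lies above the male one for 32 genes.

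Other lysosomal genes, a list of 70 further hydrolases, transporters and trafficking proteins, gave no call. Rpb2 start-site peaks were found for 52 of them, with a median level of 394.3 RPKM. Of their 65 start-site peaks, 0 were called by edgeR, 5 were higher and 1 was lower in KO at an unadjusted p under 0.05 (4.42% and 6.13% of all start-site peaks), and the median log2 fold change was 0.18. Of their 192 Rpb2 peaks overall 9 were higher and 8 lower by that measure (6.12% and 6.06% of all Rpb2 peaks, median 0.06), and of their 197 H3K27ac peaks 1 was higher and 2 lower (1.35% and 3.6% of all H3K27ac peaks, median −0.07).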

How the data were processed

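Microglia ChIP-seq for Rpb2 and H3K27ac was measured in 8 libraries, and the 4 input samples were not used here. Per the study's methods and processing notes, the authors mapped reads to mm10 with Bowtie2 and called peaks with HOMER. They selected peaks by the irreproducible discovery rate between replicates and joined the lists of both genotypes. Raw read counts were deposited for each joined peak, unnormalised. For H3K27ac, 67.9% of all peaks in the WT list only had 0 reads in the WT male pool, so these peaks were not seen in both WT pools. Coordinates are those of the deposited files, and they fell within the chromosome lengths of GRCm38. 0 columns of per-sample values were left unused.

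Counts were tested here with edgeR 4.0.16 in R 4.3.3 (glmQLFit, glmQLFTest, TMM factors, genotype only, mean count 4 or more in either genotype, Benjamini-Hochberg adjustment at 0.05) over all peaks of a table, in 3 fits: Rpb2 peaks within 1000 bp of a start site, all Rpb2 peaks and all H3K27ac peaks. Pools are separate animals, but n = 2 against 2 cannot reach 0.05 in an exact permutation test. On simulated counts with 200 peaks changed 4-fold, the Rpb2 start-site fit recovered 135 with 5 false calls (10125 peaks), the Rpb2 fit 78 with 1 (26706 peaks) and the H3K27ac fit 70 with 198 (55862 peaks), so H3K27ac calls are unreliable. CPM and levels use TMM-scaled reads in tested peaks. A bound uses 3 reads over a genotype's pools and covers counting error only. Values for single genes are given for the 2 highest and the lowest start-site peak of each role group by mean count (not by RPKM, which orders some genes differently), the 5 lowest p-values of each mark over all its peaks, and Tfeb, Tfe3, Mcoln1, Grn, Ctsa and Lamp1; the other genes named, among them those of low p in the start-site fit, of many peaks and of promoter elements, were chosen after their values were seen. The members, lists and tests were chosen with earlier results of these data known. Gene positions come from GENCODE vM21. Alternatives were other scalings, DESeq2 1.42.0, other filters, a sex block, sums per gene and leaving out each library. Motifs and figures used Python 3.11.15.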

Additional observations from a re-analysis of the deposited data

Results flagged for a closer look

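At 6 of the 25 start-site Rpb2 peaks given by library, the ratio of the pools labelled female (KO over WT, log2) and that of the male pools had opposite signs, and the difference was not tested. The ratios were −0.076 and 0.035 for Atp6v0a1, −0.59 and 0.90 for Atp6v0e, 0.11 and −0.29 for Atp6v1b2, 0.16 and −0.056 for Atp6v1e1, −0.135 and 0.10 for Tfe3, and 0.32 and −0.44 for Tpp1, female first. Opposite signs were found in 41.9% of the 62 lysosomal start-site peaks and in 43.6% of all start-site peaks. The sex label of the WT library labelled female is doubtful for Rpb2, so these are differences between pools. With 2 pools per genotype, no single pool could be tested for standing apart from its group.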

How the results depend on the processing

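Scaling by total reads of the library moved the median log2 fold change of the lysosomal peaks to 0.31 at start sites, 0.42 over all Rpb2 peaks and 0.72 for H3K27ac, while the medians of all peaks moved to 0.22, 0.37 and 0.53. DESeq2 called 11 of the 246 Rpb2 peaks, 4 higher and 7 lower (1022 of all peaks), and 1 of the 249 H3K27ac peaks, lower (240 of all peaks), against 0 by edgeR. The H3K27ac median was −0.031 with DESeq2 size factors, −0.036 with the DESeq2 test, 0.14 with peaks summed per gene, 0.13 over peaks near a start site and 0.21 over promoter windows, the last chosen after seeing the data. Leaving out 1 library gave 0 to 2 called start-site peaks (medians −0.015 to 0.20), 0 to 22 called Rpb2 peaks (0.07 to 0.21) and 0 to 44 called H3K27ac peaks (0.0025 to 0.083). The highest counts came without a WT library. Without the library labelled WT female 2 start-site peaks (3.23%, against 2.34% of all) and 22 Rpb2 peaks (8.94%, against 8.28%) were called, and 5 H3K27ac peaks (2.06%, against 1.53%). Without the WT male pool 1 start-site peak (1.61%, against 1.04%), 12 Rpb2 peaks (4.88%, against 7.35%) and 44 H3K27ac peaks (17.8%, against 14.8%) were called. With sex as a replicate block 0 lysosomal peaks were called in each of the 3 fits, while calls over all peaks numbered 24, 4 and 12 against 0, 2 and 13. Female minus male differences in WT and KO correlated at 0.0015, −0.0072 and 0.0015, so over all peaks the genotypes did not share this difference. This does not check the sex labels. For H3K27ac, Y-linked reads were 0 in both female pools and 281 (WT) and 656 (KO) in the male pools. Xist reads were 130 (WT) and 252 (KO) in the female pools and 7 (WT) and 4 (KO) in the male pools, so the H3K27ac labels held.

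Some start-site fold changes near 0 changed sign. Atp6v0a1 came to 0.0012 with reads in tested peaks, 0.21 with total reads and 0.027 with at least 10 reads in every library. Total reads gave 0.12 for Atp6v1b2, 0.13 for Tpp1 and 0.14 for Hexa. Tfe3 came to −0.0062 with DESeq2 size factors and −0.0058 with the DESeq2 test. Leaving out 1 library, values ran from −0.18 to 0.16 for Atp6v0a1, −0.044 to 0.39 for the Atp6v0c promoter, −0.44 to 0.81 for Atp6v0e, −0.27 to 0.12 for Atp6v1b2, −0.23 to 0.39 for Atp6v1e1, −0.39 to 0.36 for Tpp1, −0.20 to 0.11 for Hexa, −0.19 to 0.20 for Tfe3 and −0.15 to 0.40 for Ctsa. The cause of these changes was not tested. Depth limits the low start sites most, since Glb1, Atp6v1h, Tpp1, Lamp1, Sgsh, Cd63, Atp6v1a and Atp6v0e had under 60 reads in each WT library.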
